A study of Mus musculus with 61 samples.

Results

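Pla2g2d, which encodes a secreted phospholipase A2, and 7 relatives (Pla2g2e, Pla2g2f, Pla2g5, Pla2g7, Pla2g10, Pla2g12a and Pla2g4a) were followed across every group of a microarray study of tear and salivary glands from NOD mice, a strain whose males develop lymphocytic infiltration of the lacrimal glands. The genes were taken as the probe sets that carry 1 of these 8 symbols alone in the array's annotation, which gave 10 of 45101 probe sets and 8 of 18194 genes. Pla2g2d was chosen by its lacrimal level, which lay at background after LTBR-Ig, so its comparisons that use LTBR-Ig arrays of either week, or any week 16 lacrimal arrays, are given here as descriptions with no test. The other 7 genes were taken for their kinship to it.

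The 61 arrays covered 31 lacrimal and 30 salivary samples of male NOD mice in 16 groups. Treated mice received weekly intraperitoneal injections from week 8 of age with LTBR-Ig, a soluble lymphotoxin-beta receptor joined to a mouse IgG1 Fc that acts as an antagonist of the pathway, or with MOPC-21, a mouse IgG1 antibody used as its control. Both were sampled at week 12, after 4 weeks, and at week 16, after 8 weeks, and untreated mice were sampled at weeks 8, 12, 14 and 16. Each group had 4 arrays, except the salivary LTBR-Ig group of week 12 with 2 and the lacrimal untreated group of week 12 with 3. A lacrimal sample held both glands of 1 mouse, and a salivary sample held combined submandibular and parotid tissue freed of the neighbouring cervical lymph nodes. Nothing says that the salivary arrays of a group came from separate mice, so their p-values may measure technical spread. These are whole glands, so fewer cells of a type and less RNA per cell cannot be told apart in any value below.

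Phospholipases A2 cut a fatty acid out of membrane phospholipids and leave a lysophospholipid. The cytosolic enzyme encoded by Pla2g4a prefers arachidonic acid, the starting material of prostaglandins and leukotrienes. The secreted enzymes act outside the cell on membranes, vesicles and lipoproteins, and in mice Pla2g2d is known from dendritic cells and macrophages of lymphoid tissue, where it dampens immune responses. Pla2g7 encodes an enzyme of another kind, the plasma platelet-activating factor acetylhydrolase, which macrophages secrete and which inactivates that lipid mediator. Pla2g12a is a widely expressed secreted member. The genes Pla2g2c, Pla2g2f, Pla2g2d, Pla2g5, Pla2g2a and Pla2g2e lie next to each other in that order on chromosome 4.

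The promoters of the 3 members that were lower in LTBR-Ig than in MOPC-21 lacrimal glands at week 12 or week 16 are printed first (RefSeq starts, mouse build GRCm38.p6, 250 bases before and 50 bases after the start, 5′ to 3′ on the strand of the gene). Capitals mark GAGGAA, the purine-rich core bound by ETS factors such as PU.1, or GGGCGG, the GC box, read on either strand. The Pla2g2d window is chr4:138775485-138775784 on the plus strand, the Pla2g7 window chr17:43568201-43568500 on the plus strand, and the Pla2g4a window (1 of 2 starts in the table) chr1:149961241-149961540 on the minus strand.
Pla2g2d: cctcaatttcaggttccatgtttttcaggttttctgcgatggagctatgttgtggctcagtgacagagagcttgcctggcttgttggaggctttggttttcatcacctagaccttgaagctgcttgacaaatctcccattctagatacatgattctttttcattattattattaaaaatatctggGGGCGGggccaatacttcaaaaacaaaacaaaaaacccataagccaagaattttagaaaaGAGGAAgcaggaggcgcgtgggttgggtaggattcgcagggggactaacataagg
Pla2g7: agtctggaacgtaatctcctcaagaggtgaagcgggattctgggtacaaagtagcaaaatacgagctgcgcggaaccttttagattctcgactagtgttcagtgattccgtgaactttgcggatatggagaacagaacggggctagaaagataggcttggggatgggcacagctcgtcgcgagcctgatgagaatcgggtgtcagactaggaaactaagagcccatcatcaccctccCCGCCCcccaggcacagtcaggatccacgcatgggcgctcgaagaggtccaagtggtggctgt
Pla2g4a: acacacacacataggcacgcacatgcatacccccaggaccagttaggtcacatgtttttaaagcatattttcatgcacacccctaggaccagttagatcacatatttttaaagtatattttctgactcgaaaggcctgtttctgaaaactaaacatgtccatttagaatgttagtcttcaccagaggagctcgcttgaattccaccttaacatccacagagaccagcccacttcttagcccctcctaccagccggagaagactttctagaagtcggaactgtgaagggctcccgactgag

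In Pla2g2d, GAGGAA began 5 bases and GGGCGG 65 bases before the start. Pla2g7 held GGGCGG on the opposite strand, beginning 13 bases before its start as printed, and the Pla2g4a window held neither. Of the members not printed, Pla2g5 (in 1 window) and Pla2g12a held GAGGAA, and Pla2g10 held GGGCGG at 2 positions. All 8 members had at least 1 promoter in the table, 10 windows in all. Among 32851 mouse promoters of the same length, 28.3% held GAGGAA, 35.7% held GGGCGG and 8.46% held the NF-kappaB consensus, all read on both strands, and none of the 10 member windows held the NF-kappaB consensus. These matches describe letters only.

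Values are log2 GCRMA levels. A probe set was tested in a tissue when it lay above 4, taken as the floor, in 2 or more arrays of any group, and "called" means a fold of at least 2 with an adjusted p under 0.05 in limma. Pla2g2d, Pla2g7, Pla2g4a and Pla2g12a passed in the lacrimal gland, where 20077 probe sets were tested. Pla2g7, Pla2g4a and Pla2g12a passed in the salivary gland, where 19617 were tested. Pla2g2e (highest of 61 arrays 2.15), Pla2g2f (2 probe sets, highest 2.72), Pla2g5 (highest 2.97) and Pla2g10 (highest 3.05) lay under the floor in every array of both tissues and were not tested. Background probe sets have no order among themselves, and a difference from a background value understates the change of a gene.

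Some arrays stood apart. The lacrimal genes Obp1a and Lcn11 averaged 15.11 to 15.87 in all lacrimal arrays and 2.50 to 3.22 in salivary arrays outside the week 8 group. Amy1, a salivary amylase gene, exceeded 8 in 8 lacrimal arrays (LTBR-Ig week 12 replicates 1 and 2, LTBR-Ig week 16 replicates 3 and 4, MOPC-21 week 12 replicate 1, untreated week 12 replicate 2, and untreated week 16 replicates 1 and 2). It exceeded 8 in only 6 of the 30 salivary arrays. A list of 7 salivary genes that includes Amy1 averaged 7.22 to 11.75 in LTBR-Ig week 16 lacrimal arrays and 3.98 to 4.29 in untreated week 8 ones. Leaving out the arrays with Amy1 above 8 thus does not remove every lacrimal array with raised salivary genes. Salivary untreated week 8 replicate 1 carried the lacrimal genes Obp1a at 13.34 and Lcn11 at 13.34, against at most 7.76 for Obp1a and 3.54 for Lcn11 in the other 3 arrays of its group.

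Pla2g2d lay at the bottom of the scale in all LTBR-Ig lacrimal glands and well above it in all MOPC-21 lacrimal glands. At week 16 its probe set read 2.79, 2.63, 2.66 and 2.62 in LTBR-Ig glands, against 5.79, 5.53, 7.29 and 5.68 in MOPC-21 glands and 4.93, 5.60, 5.85 and 6.37 in untreated glands. The LTBR-Ig values lay below every value of both other groups. The mean differences were −3.40 against MOPC-21 and −3.01 against untreated mice, while MOPC-21 minus untreated was 0.38.

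**Figure D1:**
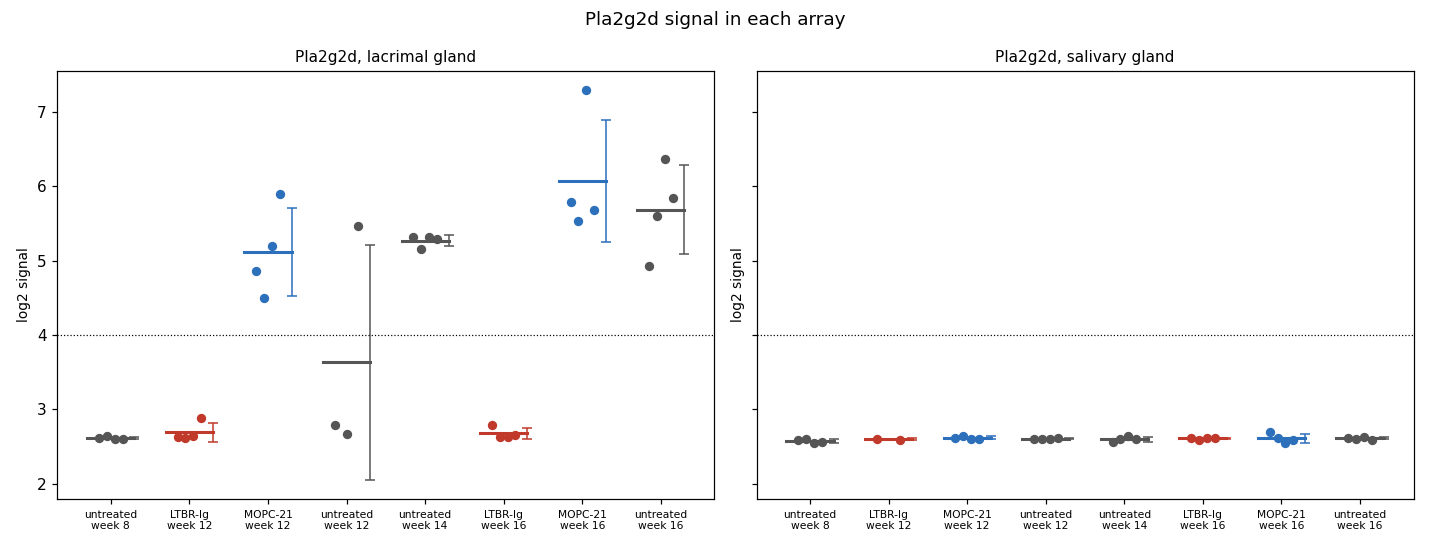
Log2 GCRMA level of Pla2g2d in every array, by tissue and group. Points are arrays, short bars are group means with the SD, and the dotted line is the floor of 4. The 8 LTBR-Ig lacrimal arrays lie between 2.62 and 2.88, the 8 MOPC-21 lacrimal arrays between 4.50 and 7.29, and all 30 salivary arrays between 2.55 and 2.69.

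The same separation was present after 4 weeks of treatment. At week 12 Pla2g2d read 2.88, 2.62, 2.62 and 2.64 in LTBR-Ig lacrimal glands, against 4.86, 5.20, 4.50 and 5.90 in MOPC-21 glands. The groups did not overlap. The level averaged 2.69 ± 0.13 in LTBR-Ig and 5.12 ± 0.59 in MOPC-21 glands (SD, n = 4 each), a difference of −2.43 (5.37-fold). Without the arrays with Amy1 above 8 it was −2.57, and with MOPC-21 and untreated mice joined as 1 control it was −1.69. In this comparison 10 of 20077 probe sets, 0.0498%, were called, and none of the other 3 tested members was among them.

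The second Pla2g2d probe set exceeded the floor in 6 of 31 lacrimal arrays. At week 12 it lay at 2.10, 2.34, 2.32 and 2.11 in LTBR-Ig glands, against 3.09, 3.86, 2.45 and 4.16 in MOPC-21 glands. These groups did not overlap either, with a mean difference of −1.17. At week 16 it lay between 2.11 and 2.34 in LTBR-Ig glands and between 2.97 and 6.29 in MOPC-21 glands.

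Untreated week 12 glands were split for Pla2g2d. They read 2.78, 2.66 and 5.46 in replicates 2, 3 and 4, so 2 of the 3 lay at background and 1 lay inside the MOPC-21 range. The B cell list (Ms4a1, Cd79a, Cd79b, Cr2 and Fcer2a) averaged 8.95 in replicate 4, against 5.95 and 6.36 in the other 2. LTBR-Ig minus untreated was −0.95, in a comparison where 1 probe set or 0.00498% was called, which was no member. MOPC-21 minus untreated was 1.48 (unadjusted p = 0.0031, limma adjusted p = 0.67), where 0% were called, with 83 probe sets at an unadjusted p under 0.05 and a fold of at least 2. Untreated replicate 4 was the 1 array of its group with signal. Without it that difference was 2.39, with the 2 remaining untreated arrays at background. The 3 comparisons at week 12 share arrays with each other, as do the 3 at week 16.

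The difference at week 16 minus that at week 12, LTBR-Ig against MOPC-21, was −0.97 for Pla2g2d. In that comparison 0% of probe sets were called, with 774 at an unadjusted p under 0.05 and a fold of at least 2.

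In untreated lacrimal glands Pla2g2d lay above the floor in every array at week 14 and in none at week 8. It read 5.32, 5.31, 5.15 and 5.29 at week 14, against 2.60, 2.61, 2.64 and 2.61 at week 8. The 4 week 14 arrays all lay far above the 4 week 8 arrays. The level averaged 5.27 ± 0.08 at week 14 and 2.61 ± 0.01 at week 8 (SD, n = 4 each), a rise of 2.65 (6.29-fold). Pla2g7, Pla2g4a and Pla2g12a were called between these weeks, against a background of 13.6% of probe sets. Pla2g2d is not counted with them and no p-value is given for its rises. Its week 8 arrays lay at the lower limit, and it passed the filter only through groups where it was high. At week 12 the rise over week 8 was 1.02. It was 0.11 without replicate 4, 1.45 without replicate 2 and 1.51 without replicate 3. In a fit that left out all arrays with Amy1 above 8, here replicate 2, it was also 1.45. At week 16 the mean lay 3.07 above week 8.

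LTBR-Ig week 16 glands and untreated week 8 glands, sampled before any injection, differed by 0.06 for Pla2g2d, at 2.67 ± 0.08 and 2.61 ± 0.01 (SD, n = 4 each). Both groups lay under the floor.

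Pla2g2d was not detected in salivary glands. It exceeded the floor in 17 of 31 lacrimal arrays and in 0 of 30 salivary arrays, which ran between 2.55 and 2.69 whatever the treatment or week. Lacrimal minus salivary was 2.67 in untreated mice at week 14 and 0.04 at week 8, with and without salivary week 8 replicate 1. The second probe set gave 0.93 at week 14, under a fold of 2. The change between weeks 8 and 14 was 2.63 larger in lacrimal than in salivary glands. On the second probe set it was 0.96 larger, under a fold of 2. Without salivary week 8 replicate 1 the change on the first probe set was 2.62 larger. Pla2g2d passed the joint filter through lacrimal groups alone. Its salivary group SDs, at the lower limit, ran from 0.0065 to 0.059, against up to 1.58 in lacrimal groups, and all enter the pooled spread. A p-value of these tissue comparisons would therefore not measure the spread of Pla2g2d, and none is given. The week 12 treatment difference, lacrimal minus salivary, was −2.41, in a comparison where 0.00925% of probe sets were called.

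In the order of group means, Pla2g2d ran MOPC-21 week 16 (6.07), untreated week 16 (5.69), untreated week 14 (5.27), MOPC-21 week 12 (5.12), untreated week 12 (3.64), and then LTBR-Ig week 12 and week 16 in the lacrimal gland (2.69 and 2.67). The ranges of every pair of neighbours in that order overlapped. The remaining groups, lacrimal week 8 and all salivary groups, had means between 2.58 and 2.62.

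Markers of infiltrating cells were examined beside Pla2g2d. In week 12 lacrimal glands the B cell list averaged 6.43 to 7.96 in LTBR-Ig and 7.06 to 9.02 in MOPC-21 arrays with 0 of 5 tested genes called. The T cell list (Cd3e, Cd3d, Cd3g, Cd4 and Cd8a) averaged 5.08 to 5.77 in LTBR-Ig and 5.29 to 6.09 in MOPC-21 arrays (0 of 4 called), and the dendritic cell and macrophage list (Itgax, Flt3, Zbtb46, Ccr7, Fscn1, Cd209a, Adgre1, Csf1r and Cd68) 5.37 to 6.38 in LTBR-Ig and 5.36 to 6.28 in MOPC-21 arrays (0 of 9 called). All 3 lists overlapped between the treatments at week 12. Pla2g2d did not, but it was chosen by its level after LTBR-Ig, so this is a description only. The lymphoid stroma list (Glycam1, Chst4, Madcam1 and Cxcl13) also did not overlap, at 4.44 to 4.92 in LTBR-Ig and 5.12 to 5.94 in MOPC-21 arrays. LTBR-Ig replicates 1 and 2, both with Amy1 above 8, had B cell averages of 7.66 and 7.96 with Pla2g2d at 2.88 and 2.62. MOPC-21 replicate 3 had the lowest B cell average of its group, 7.06, with Pla2g2d at 4.50. The relation of Pla2g2d to B cell content was not tested. The salivary gene list averaged 5.69 to 12.66 in LTBR-Ig and 5.39 to 9.51 in MOPC-21 arrays at week 12.

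None of the 9 dendritic cell and macrophage genes was called at week 12, and their median LTBR-Ig minus MOPC-21 difference was 0.187. Glycam1, made by high endothelial venules, was called lower at week 12, with 3.09 to 3.24 in LTBR-Ig and 5.65 to 7.39 in MOPC-21 arrays. It was the 1 called of 2 tested genes of the lymphoid stroma list. The part of any of these cells in the Pla2g2d difference was not tested.

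At week 16, where 5.88% of all probe sets were called, the lists lay lower in LTBR-Ig than in MOPC-21 lacrimal glands. The B cell list averaged 5.04 to 7.73 in LTBR-Ig and 7.71 to 9.68 in MOPC-21 arrays (5 of 5 called lower), the T cell list 4.23 to 5.55 in LTBR-Ig and 5.66 to 6.65 in MOPC-21 arrays (4 of 4 lower), and the dendritic cell and macrophage list 4.93 to 6.23 in LTBR-Ig and 5.89 to 7.12 in MOPC-21 arrays (5 of 9 lower). The lymphoid stroma list averaged 3.86 to 4.68 in LTBR-Ig and 5.81 to 6.63 in MOPC-21 arrays (2 of 2 tested genes lower). Flt3 was among the 5 of the dendritic cell and macrophage list, at 2.90 to 2.996 in LTBR-Ig and 4.30 to 4.98 in MOPC-21 arrays. Amy1 and other salivary genes ran the other way, with a list average of 7.22 to 11.75 in LTBR-Ig and 4.23 to 5.86 in MOPC-21 arrays (5 of 7 called higher). Their part in the week 16 values was not tested.

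Against untreated week 8 glands, LTBR-Ig week 16 glands still carried more of these markers, with 4 of 5 B cell, 3 of 4 T cell and 7 of 9 dendritic cell and macrophage genes called higher, beside 8.58% of all probe sets called. The B cell list averaged 5.04 to 7.73 in LTBR-Ig week 16 arrays and 3.08 to 3.97 in untreated week 8 arrays. Pla2g2d lay under the floor in both groups. It was chosen by its level after LTBR-Ig, so this is a description only.

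**Figure D2:**
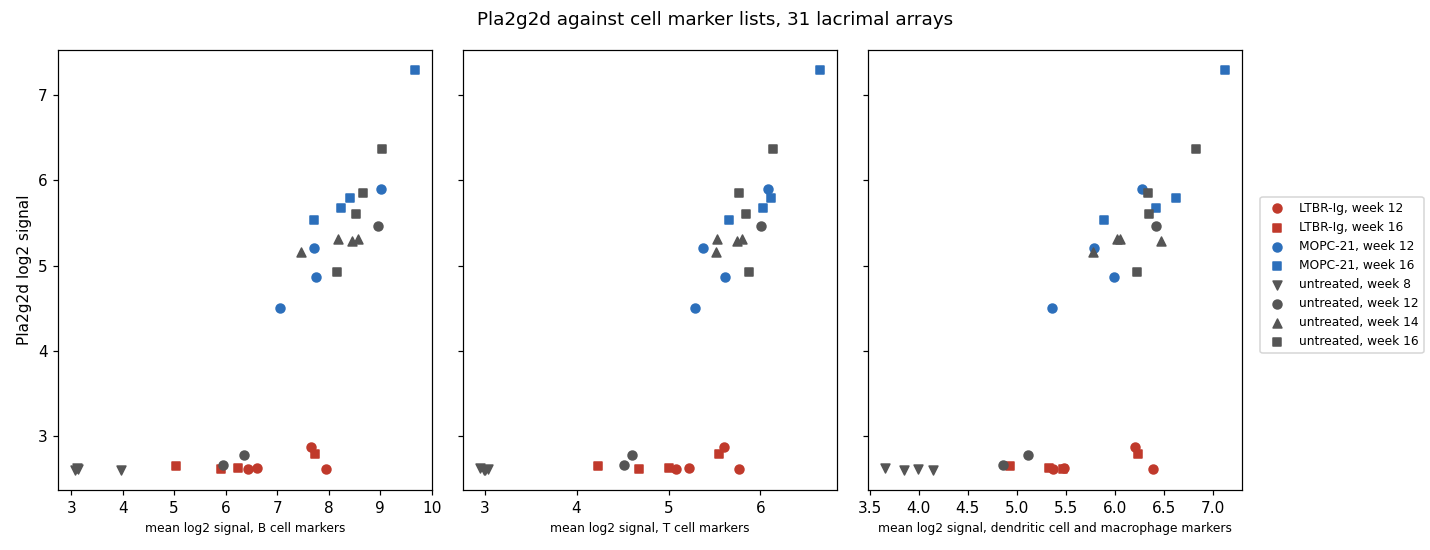
Pla2g2d log2 level (vertical axis) against the mean log2 level of the B cell, T cell, and dendritic cell and macrophage lists (horizontal axes of the 3 panels) in the 31 lacrimal arrays, with colours for treatment and symbols for week. In LTBR-Ig arrays Pla2g2d, chosen by its background level there, stays between 2.62 and 2.88. The B cell list runs between 5.04 and 7.96 in them.

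Of 10142 genes tested in the lacrimal gland, Fabp5, a fatty acid binding protein of macrophages and other cells, had the pattern most like Pla2g2d across the 31 lacrimal arrays (Pearson r = 0.94, and 0.95 over the 23 arrays without LTBR-Ig). Glycam1 followed (0.93, and 0.89 over the 23), then Ppp1cc, a phosphatase catalytic subunit (0.93 and 0.94), Runx3, a transcription factor of lymphocytes and dendritic cells (0.92 and 0.95), Bach2, a transcription factor of lymphocytes (0.92 and 0.93), Zfp318 (0.92 and 0.91), Lyst, a regulator of lysosomal trafficking (0.91 and 0.97), Cfp, complement properdin (0.91 and 0.93), Pxdc1 (0.91 and 0.92) and Add3, a membrane skeleton protein (0.91 and 0.92). These 31 points share the split into groups with and without Pla2g2d signal. The choice of 10 genes depended on the measure, since 1 of them was among the first 10 by Spearman correlation and 4 among the first 10 without the arrays with Amy1 above 8. Fabp5 ranked 258 by Spearman correlation. Over the 23 arrays without LTBR-Ig, Lyst ranked 18, Fabp5 94, Zfp318 696 and Glycam1 841 of these genes.

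Among the members, Pla2g7 correlated with Pla2g2d at 0.757 over the 31 lacrimal arrays and at 0.933 over the 23 without LTBR-Ig. Pla2g4a gave 0.694 and 0.874 over the same arrays, and Pla2g12a gave −0.73 and −0.90. These are descriptions of arrays that share group and cell content.

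Pla2g7 was lower in LTBR-Ig than in MOPC-21 or untreated lacrimal glands at week 16, where it still lay above the untreated week 8 level. At week 16 it read 6.31, 6.0, 5.33 and 6.0 in LTBR-Ig glands, against 7.25, 6.89, 8.16 and 7.22 in MOPC-21 glands and 6.95, 7.27, 7.01 and 7.70 in untreated glands. Every LTBR-Ig value lay below every value of the other 2 groups. The level averaged 5.91 ± 0.41 in LTBR-Ig, 7.38 ± 0.55 in MOPC-21 and 7.23 ± 0.34 in untreated glands (SD, n = 4 each). The difference was −1.47 against MOPC-21 (SE 0.33, 95% interval −2.11 to −0.84, 2.78-fold, limma adjusted p = 0.00782) and −1.32 against untreated mice (2.50-fold, limma adjusted p = 0.0211).

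At week 16, 5.88% of probe sets were called between LTBR-Ig and MOPC-21 and 3.95% between LTBR-Ig and untreated mice. Of the 3 members tested there, 2 were called against MOPC-21 (Pla2g7 and Pla2g4a) and 1 against untreated mice (Pla2g7). Without MOPC-21 replicate 3 the Pla2g7 difference was −1.21 (adjusted p = 0.0615), and against untreated mice the call was lost without LTBR-Ig replicate 3 (adjusted p = 0.0976) or untreated replicate 4 (adjusted p = 0.0999). Without the arrays with Amy1 above 8 the differences were −1.23 (adjusted p = 0.207) and −1.20 (adjusted p = 0.359). MOPC-21 and untreated glands gave no called member at week 16, where 0% of probe sets were called and 21 had an unadjusted p under 0.05 with a fold of at least 2.

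At week 12 Pla2g7 read 6.75, 7.15, 5.93 and 6.10 in LTBR-Ig glands, against 6.53, 6.21, 6.10 and 7.11 in MOPC-21 glands. The groups overlapped, with a difference of −0.01 (95% interval −0.64 to 0.63, limma adjusted p = 0.999). In these same glands Pla2g2d differed by −2.43, and the 2 genes' differences were not tested against each other. The week 16 difference minus the week 12 difference for Pla2g7 was −1.47 (SE 0.46, limma adjusted p = 0.303).

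**Figure D3:**
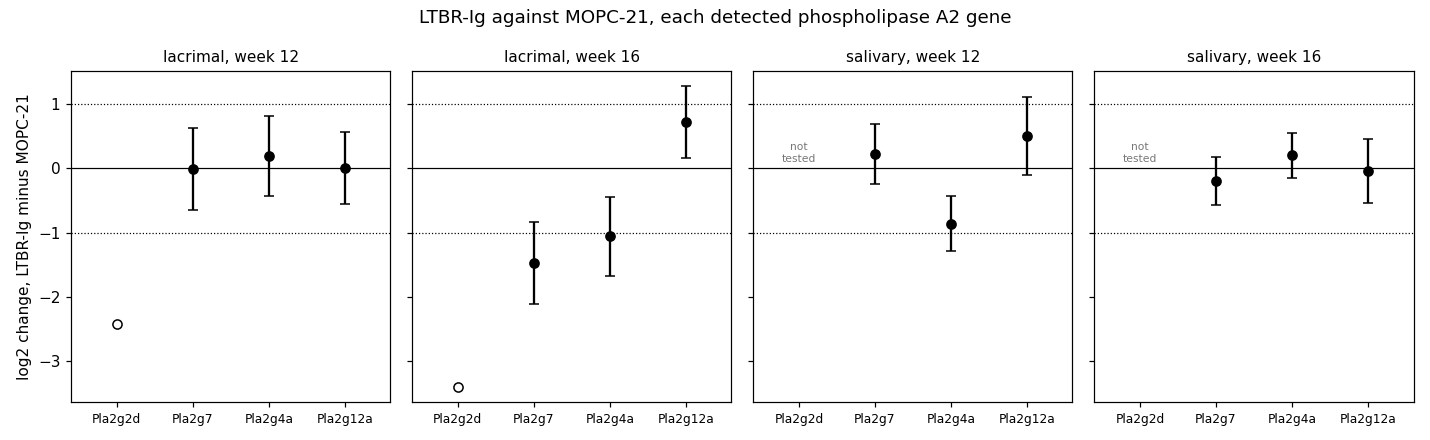
LTBR-Ig minus MOPC-21 log2 differences of the tested members at weeks 12 and 16 in lacrimal and salivary glands, with 95% intervals from limma (open circles, Pla2g2d in lacrimal glands, are descriptions with no test, and dotted lines mark a fold of 2). In lacrimal glands Pla2g2d lies at −2.43 at week 12, where Pla2g7 lies at −0.01 and Pla2g4a at 0.19.

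With age, Pla2g7 was already higher at week 12. In untreated lacrimal glands it read 3.90, 4.47, 4.20 and 4.73 at week 8, 5.49, 5.81 and 7.01 at week 12, 6.87, 6.60, 6.03 and 6.88 at week 14, and 6.95, 7.27, 7.01 and 7.70 at week 16. No later array lay within the week 8 range. The rise over week 8 was 1.78 at week 12 (3.43-fold, limma adjusted p = 3.27e-04), 2.27 at week 14 (4.83-fold, adjusted p = 3.66e-06) and 2.91 at week 16 (7.50-fold, adjusted p = 6.66e-08). Without the arrays with Amy1 above 8 the rises were 2.09 at week 12 and 3.03 at week 16, both called. Pla2g7 was the 1 member called at week 12, where 9.67% of probe sets were called.

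In the order of lacrimal means, Pla2g7 ran MOPC-21 week 16 (7.38), untreated week 16 (7.23), untreated week 14 (6.60), MOPC-21 week 12 (6.49), LTBR-Ig week 12 (6.48), untreated week 12 (6.10), LTBR-Ig week 16 (5.91) and, at the end, untreated week 8 (4.32). Of the neighbours down to LTBR-Ig week 16, only the untreated groups of week 16 and week 14 did not overlap. LTBR-Ig week 16 glands had 1.58 more Pla2g7 than untreated week 8 glands (3.0-fold, limma adjusted p = 4.54e-04), and 1.83 more without the arrays with Amy1 above 8. In that comparison 8.58% of probe sets were called, and Pla2g7 was the 1 member called of 3 tested.

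In salivary glands Pla2g7 stayed between 3.98 and 5.60. The difference between LTBR-Ig and MOPC-21 was −0.20 at week 16 and 0.22 at week 12, and untreated week 16 minus week 8 was −0.07 (−0.17 without week 8 replicate 1). No tested member was called in these 3 salivary comparisons, where 0.0357%, 0.0306% and 7.14% of probe sets were called, with 56, 128 and 1418 at an unadjusted p under 0.05 and a fold of at least 2.

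The treatment difference at week 16, lacrimal minus salivary, was −1.27 for Pla2g7 (SE 0.39, limma adjusted p = 0.0462), one of 2 members called where 2.93% of probe sets were. It passed the threshold in only 3 of the 16 fits that left out 1 array, and without the arrays with Amy1 above 8 it was −1.03 (adjusted p = 0.311). The age change between weeks 8 and 14 was 2.49 larger in the lacrimal gland (adjusted p = 1.17e-06), and 2.59 larger without salivary untreated week 8 replicate 1. Lacrimal minus salivary was 1.74 at week 14 (SE 0.27, adjusted p = 3.66e-07) and −0.75 at week 8 (adjusted p = 0.0177, under a fold of 2), so the sign of the gland difference turned between these weeks. Without that replicate the week 8 value was −0.85.

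**Figure D4:**
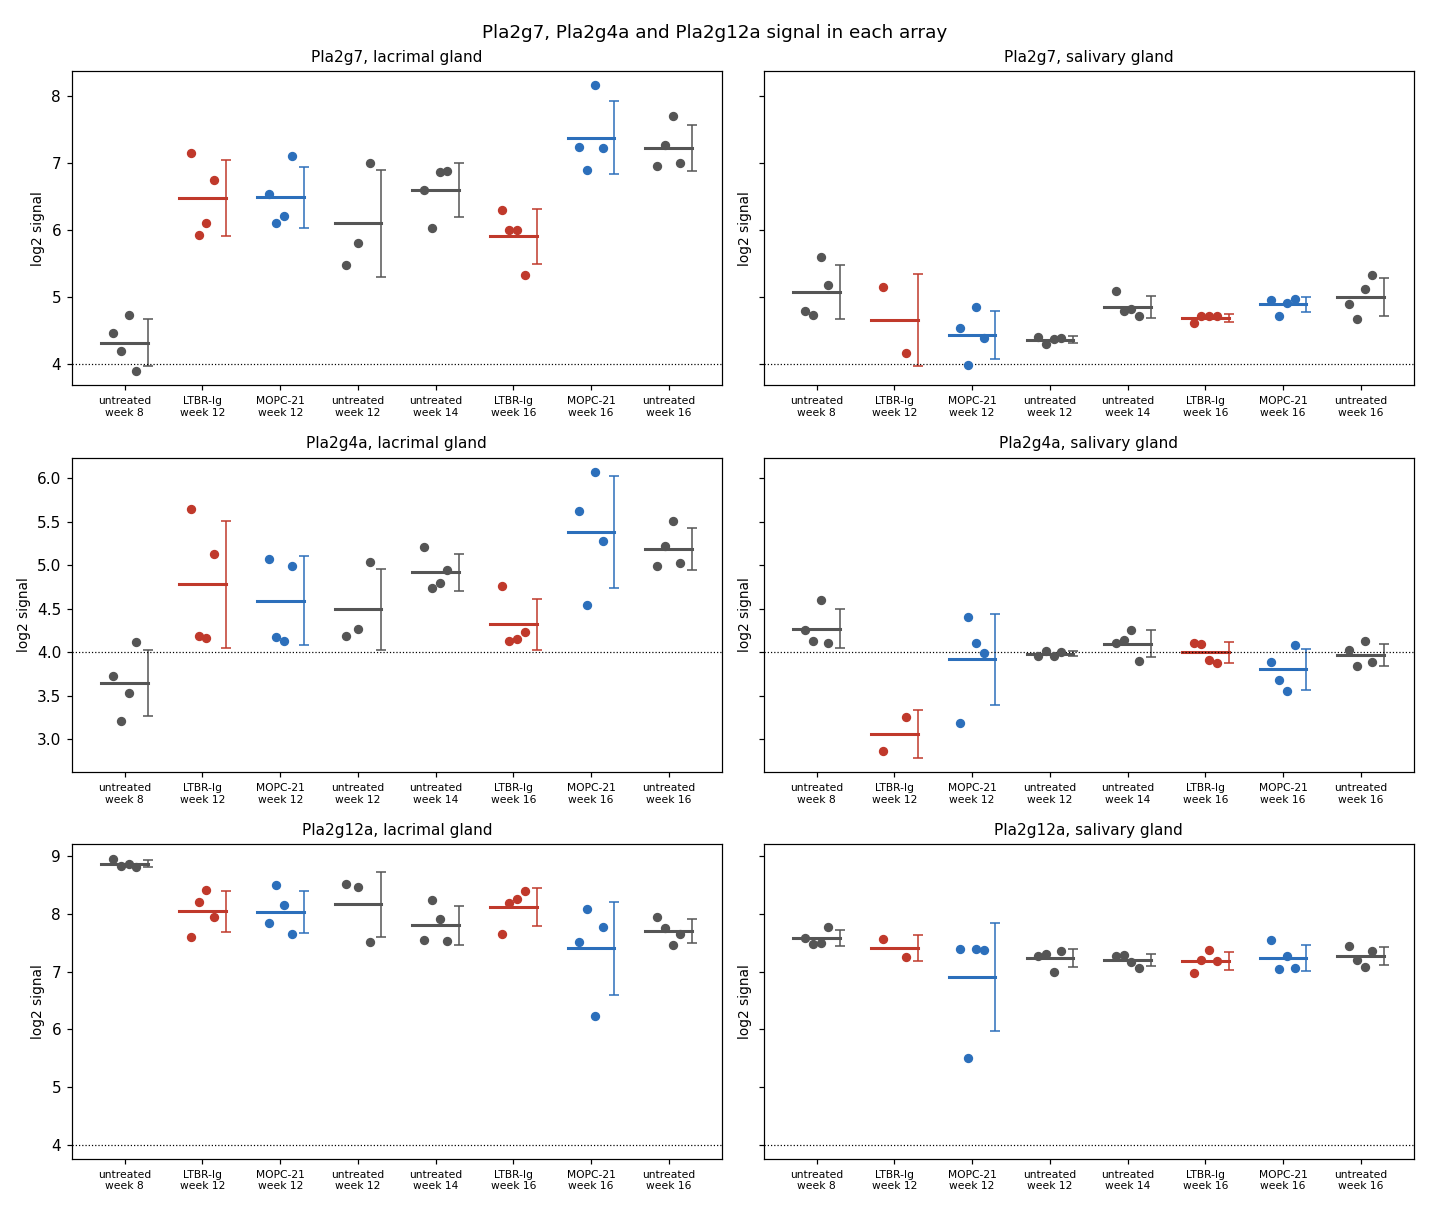
Log2 GCRMA levels of Pla2g7, Pla2g4a and Pla2g12a in every array, by tissue and group, with group means and SD and a dotted line at the floor of 4. In untreated lacrimal glands Pla2g7 and Pla2g4a are lowest at week 8 and Pla2g12a is highest there, at 8.82 to 8.96.

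Pla2g4a was lower in LTBR-Ig than in MOPC-21 lacrimal glands at week 16, by a call that rested on single arrays. It read 4.76, 4.13, 4.23 and 4.15 in LTBR-Ig lacrimal glands, against 5.62, 4.55, 6.07 and 5.28 in MOPC-21 glands and 4.99, 5.22, 5.03 and 5.51 in untreated glands. The LTBR-Ig values overlapped those of MOPC-21 and lay below all untreated values. The difference was −1.06 against MOPC-21 (SE 0.32, 2.09-fold, limma adjusted p = 0.0215) and −0.87 against untreated mice (limma adjusted p = 0.073). The call against MOPC-21 was lost in 5 of 8 fits that left out 1 array, with quantile normalization (−0.92), in a fit of these 2 groups alone (adjusted p = 0.0654) and without the arrays with Amy1 above 8 (−0.93, adjusted p = 0.25).

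At week 12 Pla2g4a read 5.13, 5.65, 4.19 and 4.17 in LTBR-Ig glands and 5.07, 4.12, 4.17 and 4.99 in MOPC-21 glands, which overlapped. The difference was 0.19 (95% interval −0.43 to 0.81, limma adjusted p = 0.926). The 2 higher LTBR-Ig arrays, replicates 1 and 2, are those with Amy1 above 8, and without the arrays of that kind the difference was −0.25.

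In untreated lacrimal glands Pla2g4a averaged 3.64 ± 0.38 at week 8, 4.92 ± 0.21 at week 14 and 5.19 ± 0.24 at week 16 (SD, n = 4 each). It rose over week 8 by 1.28 at week 14 (limma adjusted p = 0.00176) and by 1.54 at week 16 (adjusted p = 2.2e-04), while the week 12 difference of 0.85 missed the threshold (adjusted p = 0.0523). Without the arrays with Amy1 above 8 the rises were 1.01 at week 12 (adjusted p = 0.0373, called) and 1.63 at week 16. All 3 members tested at week 16 were called against week 8, beside 16.5% of probe sets. LTBR-Ig week 16 glands lay 0.68 above week 8 (adjusted p = 0.0974).

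Salivary Pla2g4a ran between 2.86 and 4.60 and exceeded the floor in 15 of 30 arrays. At week 12 it read 2.86 and 3.25 in LTBR-Ig glands and 3.18, 4.40, 3.99 and 4.10 in MOPC-21 glands, a difference of −0.86 (SE 0.21, limma adjusted p = 0.0909), and it was past the threshold without MOPC-21 replicate 1 (−1.11, adjusted p = 0.00605). At week 16 the salivary difference was 0.20. The week 16 treatment difference, lacrimal minus salivary, was −1.26 (SE 0.37, limma adjusted p = 0.0413), and the call was lost in 12 of 16 fits that left out 1 array and without the arrays with Amy1 above 8 (−1.13, adjusted p = 0.21). The age change between weeks 8 and 14 was 1.45 larger in the lacrimal gland (adjusted p = 0.00167), and 1.46 larger without salivary untreated week 8 replicate 1. Pla2g7 and Pla2g4a were called for that difference, among 17.3% of probe sets. Pla2g2d, which passed the joint filter through lacrimal groups alone, is not counted.

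Pla2g12a went the other way with age. In untreated lacrimal glands it read 8.82, 8.96, 8.84 and 8.88 at week 8, 8.52, 8.47 and 7.52 at week 12, 7.92, 7.55, 8.24 and 7.53 at week 14, and 7.96, 7.76, 7.65 and 7.46 at week 16. All week 8 values lay above all later ones, and above every other lacrimal or salivary array. It fell by 1.06 at week 14 (SE 0.28, limma adjusted p = 0.00346) and by 1.17 at week 16 (adjusted p = 0.0013) relative to week 8, and the week 12 difference was −0.70 (adjusted p = 0.076). Leaving out week 14 replicate 2 or replicate 4 took the week 14 difference under a fold of 2. Without the arrays with Amy1 above 8 the differences were −0.88 at week 12, not called, and −1.32 at week 16, called.

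No treatment difference of Pla2g12a was called. At week 16 it read 7.65, 8.19, 8.40 and 8.26 in LTBR-Ig glands, against 7.52, 8.09, 6.24 and 7.77 in MOPC-21 glands. The groups overlapped, and the difference was 0.72 (95% interval 0.16 to 1.28, limma adjusted p = 0.0654). Against untreated mice it was 0.42 (adjusted p = 0.324). LTBR-Ig week 16 glands lay 0.75 below untreated week 8 glands (adjusted p = 0.0428), under a fold of 2.

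Pla2g12a was 1.29 higher in lacrimal than in salivary glands at week 8 (SE 0.28, limma adjusted p = 9.32e-05), the 1 call of 4 tested members beside 18.8% of probe sets, a share near that background. Without salivary untreated week 8 replicate 1 the value was also 1.29. At week 14 the difference was 0.61 (limma adjusted p = 0.0575), and Pla2g7 was called between the glands, beside 23.1% of probe sets. Pla2g2d, which passed the joint filter through lacrimal groups alone, is not counted at that week. The change of the gland difference between these weeks was −0.68 (adjusted p = 0.174).

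Among 68 further genes of lipid mediator pathways, 30 passed the filter in lacrimal glands. They were 11 of 19 other phospholipase A2 and related genes, 5 of 9 prostanoid enzymes, 3 of 10 leukotriene and lipoxygenase enzymes, 3 of 16 lipid mediator receptors and 8 of 14 lysophospholipid enzymes and receptors. At week 16, 6 of the 30 were called lower and 0 higher in LTBR-Ig than in MOPC-21 glands, beside 5.88% of all probe sets called in either direction, with a median difference of −0.233, beside −0.0547 over all probe sets tested. At week 12 none of the 30 was called, beside 0.0498% of all probe sets.

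The 4 with the largest fall were S1pr3, S1pr4 and S1pr1, receptors for sphingosine 1-phosphate, and Ptger4, a prostaglandin E2 receptor. S1pr3 averaged 3.34 ± 0.63 in LTBR-Ig and 5.57 ± 0.51 in MOPC-21 glands (SD, n = 4 each), a difference of −2.23 with no overlap (limma adjusted p = 0.00452). Ptger4 averaged 5.70 ± 1.21 in LTBR-Ig and 7.23 ± 0.62 in MOPC-21 glands, a difference of −1.53 with overlapping ranges (adjusted p = 0.0255). S1pr4 gave −1.47 (adjusted p = 0.0416) and S1pr1 −1.31 (adjusted p = 0.0215). Against untreated week 16 glands 2 were called lower, S1pr3 (−1.91) and S1pr4 (−1.62). Without the arrays with Amy1 above 8, 0 of the list were called against either control, and over the fits that left out 1 array the count ran between 1 and 7 against MOPC-21 and between 0 and 6 against untreated mice.

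**Figure D5:**
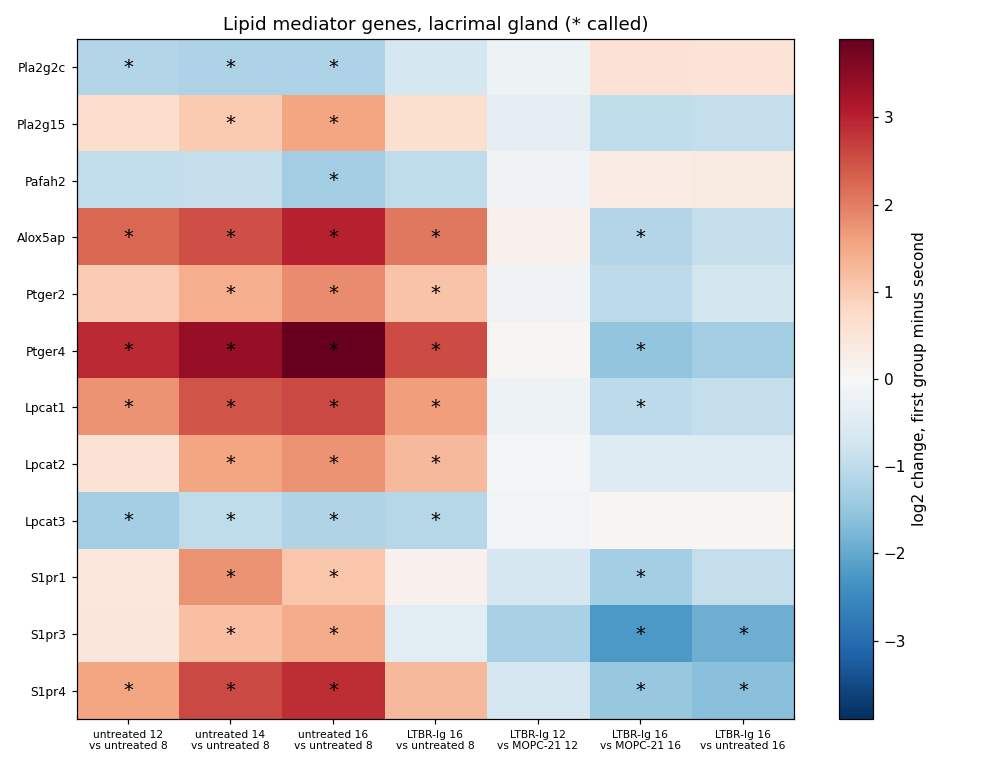
Heat map of log2 differences in lacrimal glands (colour scale, first named group minus the second) for the lipid mediator genes called in any of the 7 comparisons shown, with asterisks on called values. Ptger4 lies at 3.90 for untreated week 16 against week 8 and at −1.53 at week 16 for LTBR-Ig minus MOPC-21.

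The list was also compared with week 8 in untreated lacrimal glands. Relative to week 8, 4 genes were called higher and 2 lower at week 12, 9 higher and 2 lower at week 14, and 9 higher and 3 lower at week 16, beside 9.67%, 13.6% and 16.5% of all probe sets called at these weeks, with medians of 0.0882, 0.19 and 0.225 beside −0.109, −0.0829 and −0.0712 over all probe sets tested. At week 16 the largest rises were those of Ptger4 (3.90), Alox5ap, the protein that presents arachidonic acid to lipoxygenase (2.99), S1pr4 (2.88) and Lpcat1, an acyltransferase that rebuilds phosphatidylcholine (2.58). The genes that fell were Pafah2, an intracellular platelet-activating factor acetylhydrolase (−1.35), Pla2g2c (−1.21) and Lpcat3, an acyltransferase of arachidonoyl phospholipids (−1.18).

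Between LTBR-Ig week 16 and untreated week 8 glands, where 8.58% of all probe sets were called, 5 genes of the list were called higher, among them Ptger4 (2.53), Alox5ap (2.06), Lpcat1 (1.63) and Lpcat2 (1.25), and 1 was called lower, Lpcat3 (−1.12).

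Pla2g2c, the neighbour of Pla2g2f and Pla2g2d on chromosome 4, differed from Pla2g2d in direction with age. In untreated lacrimal glands it averaged 5.86 ± 0.27 at week 8, 4.72 at week 12, 4.66 at week 14 and 4.65 at week 16, and it was lower at each later week (limma adjusted p = 0.00364, 7.79e-04 and 5.71e-04). At week 16 it averaged 5.19 ± 0.40 in LTBR-Ig and 4.62 ± 0.50 in MOPC-21 glands, a difference of 0.56 (adjusted p = 0.125). Pla2g2f, Pla2g5 and Pla2g2e, also of this cluster, lay under the floor throughout.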

How the data were processed

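RNA from 61 gland samples was labelled and hybridised to an Affymetrix whole-genome mouse array. The authors deposited log2 values made with GCRMA (version not given in the sources used here), and no scanner files were used here. GCRMA subtracts a modelled background, so unexpressed genes crowd near a lower limit. Symbols came from the platform annotation, in which 34958 probe sets carried 1 symbol, 932 several and 9211 were not listed, and a gene with several probe sets was read from the one with the highest mean over all arrays. Groups were fitted per tissue, or in both tissues for tissue comparisons, with limma 3.58.1 in R 4.3.3 with a trended prior, after keeping probe sets above log2 4 in 2 or more arrays of any group (20077 lacrimal, 19617 salivary, 21626 joint). Calls needed a fold of 2 and a Benjamini-Hochberg adjusted p under 0.05 over all probe sets tested. No 2 arrays were identical (highest correlation 0.99651). The number of arrays limits the precision.

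The named genes were all 8 members, up to 4 called lipid mediator genes per comparison and direction, the 10 genes most correlated with Pla2g2d in lacrimal arrays, and cell markers. The members, the lists and the Amy1 limit of 8 were chosen with earlier results of these data known. Pla2g2d was fitted with LTBR-Ig at week 12 as designed, but its values there are given without a test, since its choice named no week. Labels number the replicates in every group. Only for lacrimal MOPC-21 and untreated glands at week 12 did all 3 same-numbered pairs deviate together (r 0.232 to 0.749), as judged from the data alone. Alternatives were no filter, a floor of log2 6, quantile normalization, fits of the compared groups alone, limma without the trended prior, a call on the posterior probability of no change (under 0.05) that the methods of the study name, MOPC-21 and untreated mice as 1 control, the second Pla2g2d probe set, a replicate block, and leaving out each array or the arrays with Amy1 above 8. The scripts were tested on simulated data.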

Additional observations from a re-analysis of the deposited data

Results flagged for a closer look

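Of 56 groups of member values examined, 5 had 1 array far from the others, where chance alone marks about 1 group in 20. Pla2g2d read 2.88 in LTBR-Ig lacrimal replicate 1 at week 12, against 2.62 to 2.64 in the other 3, all under the floor of 4. It read 7.29 in MOPC-21 lacrimal replicate 3 at week 16, against 5.53 to 5.79 in the other 3. Pla2g4a read 4.76 in LTBR-Ig lacrimal replicate 1 at week 16, against 4.13 to 4.23. In salivary glands Pla2g7 read 4.61 in LTBR-Ig replicate 1 at week 16, against 4.71 to 4.72, and Pla2g12a read 5.50 in MOPC-21 replicate 2 at week 12, against 7.37 to 7.39.

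The difference between tissues was itself past the threshold for Pla2g7 and Pla2g4a. The LTBR-Ig minus MOPC-21 difference at week 16, lacrimal minus salivary, was −1.27 for Pla2g7 and −1.26 for Pla2g4a, where 2.93% of probe sets were called. Leaving out 1 array lost these calls in 13 and 12 of 16 fits, and leaving out the arrays with Amy1 above 8 lost both. The untreated difference between week 14 and week 8 was larger in lacrimal than in salivary glands by 2.49 for Pla2g7 and 1.45 for Pla2g4a, where 17.3% were called. Pla2g2d, at 2.63 there, is not counted, since it lay under the floor in every salivary array and a p-value would not measure its spread.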

How the results depend on the processing

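With the fewest arrays per group at 2 and detection near the floor, small differences could not be seen. Of the member differences under alternatives other than leaving out 1 array, 455 kept their direction and side of the threshold, 32 lost and 4 gained the call, and 10 turned. These tallies include Pla2g2d fits with week 12 LTBR-Ig arrays, which are descriptions only. The cause was not tested in any case. The replicate block changed no count of members called (2 between LTBR-Ig and MOPC-21 lacrimal glands at week 16). Under it, 14 probe sets in place of 10 were called between these treatments in lacrimal glands at week 12. LTBR-Ig against untreated at week 12 gave 2 in place of 1. In salivary glands, LTBR-Ig against MOPC-21 gave 2 in place of 7 at week 16 and 2 in place of 6 at week 12.

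Members called moved as follows. Between LTBR-Ig and MOPC-21 lacrimal glands at week 16, the count of 2 became 1 with the floor at log2 6, with only the groups compared, with quantile normalization and with MOPC-21 and untreated as 1 control, and 0 under the posterior probability rule or without the arrays with Amy1 above 8. At week 12 the count is not followed, since it includes Pla2g2d, whose comparisons with LTBR-Ig arrays are descriptions with no test. Against untreated mice at week 16 the count became 0 under the posterior rule and without the arrays with Amy1 above 8. For untreated glands against week 8, the posterior rule gave 0 at week 12, 2 at week 14 and 1 at week 16, the floor at 6 gave 2 at week 14, and leaving out the Amy1 arrays gave 3 at week 12. LTBR-Ig week 16 against untreated week 8 became 0 under the posterior rule, as did lacrimal against salivary at week 8, and lacrimal against salivary at week 14 became 1 with the floor at 6. For the treatment difference at week 16, lacrimal minus salivary, the count became 0 with no filter, with quantile normalization, under the posterior rule and without the Amy1 arrays, and 1 with the floor at 6 or only the groups compared. The count for week 12 is again not followed, since it includes Pla2g2d. The age difference between tissues gave 1 with the floor at 6. Counts of members that use no LTBR-Ig arrays and no week 16 lacrimal arrays include Pla2g2d where it was tested. It passed the filters only through lacrimal groups where it was high.

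Leaving out 1 array gave counts of 0 to 2 between LTBR-Ig and MOPC-21 lacrimal glands at week 16 and 0 to 2 for LTBR-Ig against untreated at week 16. The counts were 0 to 1 for MOPC-21 against untreated at week 12, 1 to 3 for untreated week 12 against week 8, and 0 to 2 for the tissue difference at week 16. Over all probe sets, the 1180 calls between LTBR-Ig and MOPC-21 lacrimal glands at week 16 became 741 with the floor at 6, 254 with only the groups compared, 45 under the posterior rule and 22 without the Amy1 arrays. At week 12 the 10 calls became 3 with only the groups compared and 4 without the Amy1 arrays. The 793 calls of LTBR-Ig against untreated at week 16 became 500 with the floor at 6, 29 under the posterior rule and 0 without the Amy1 arrays. Under the posterior rule the untreated glands gave 888 in place of 1942 calls at week 12, 1494 in place of 2727 at week 14 and 2006 in place of 3321 at week 16 (2157 with the floor at 6), LTBR-Ig week 16 against untreated week 8 gave 884 in place of 1722, and the age difference between tissues 1721 in place of 3739. The 634 calls of the week 16 tissue difference became 251 with no filter, 375 with the floor at 6, 39 under the posterior rule and 78 without the Amy1 arrays. Salivary comparisons of treatment, with 7 and 6 calls, ran between 0 and 44.

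Directions turned only for differences that were not called. Between LTBR-Ig and MOPC-21 lacrimal glands at week 12, Pla2g7 was 0.057 with quantile normalization and 0.19 with 1 control, Pla2g12a −0.057 with 1 control and Pla2g4a −0.25 without the Amy1 arrays. Without those arrays LTBR-Ig against untreated at week 12 was −0.39 for Pla2g7, −0.47 for Pla2g4a and 0.32 for Pla2g12a, and MOPC-21 against untreated was −0.22 for Pla2g4a and 0.11 for Pla2g12a. The second Pla2g2d probe set gave −0.025 for lacrimal against salivary at week 8. With 1 array left out, Pla2g12a ran −0.12 to 0.16 between LTBR-Ig and MOPC-21 lacrimal glands at week 12, −0.45 to 0.055 against untreated, −0.46 to 0.047 for MOPC-21 against untreated at week 12 and −0.53 to 0.086 at week 16, and −0.11 to 0.056 in salivary glands at week 16. Pla2g4a ran −0.10 to 0.40, −0.0017 to 0.56, −0.067 to 0.36 and −0.038 to 0.47 in the same 4 lacrimal comparisons. Pla2g7 ran −0.23 to 0.20 between LTBR-Ig and MOPC-21 lacrimal glands at week 12, −0.11 to 0.31 for MOPC-21 against untreated at week 16, −0.71 to 0.26 for the tissue difference at week 12, −0.27 to 0.71 for salivary LTBR-Ig minus MOPC-21, week 12, and −0.19 to 0.10 for salivary untreated week 16 against week 8.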
